A study of Mus musculus with 10 samples.

Results

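Expression of 10 regulators of fat synthesis was examined in inguinal white adipose tissue (iWAT) of male C57BL/6 mice. They were the carbohydrate response element-binding protein ChREBP (Mlxipl) with its partner Mlx, the sterol-regulated factors Srebf1 and Srebf2 with Scap, Insig1 and Insig2, the liver X receptor α gene Nr1h3, and the Spot 14 pair Thrsp and Mid1ip1. The genes were chosen by name for these roles, and all 10 were found among 51826 listed genes, of which 33120 have an exon length. RNA-seq was performed on 1 library per mouse. In the F1 generation, 3 mice whose fathers had received the control diet (F1-CD) were compared with 3 mice whose fathers had received a low-protein diet (F1-LPD, the pLPD offspring). These offspring came from different mothers within each group, were fed CD themselves and were 5 weeks old, and neither the labels nor the methods say whether they share fathers. In the F0 generation, 2 males fed CD (F0-CD) and 2 males fed LPD (F0-LPD) from weaning were sampled at 10 to 12 weeks of age. Generation, age and whose diet differed cannot be told apart between F1 and F0.

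ChREBP is activated by glucose metabolites, pairs with MLX and binds carbohydrate response elements at genes of glycolysis and fatty acid synthesis, and an upstream start of its own gene gives the shorter and more active ChREBP-β. SREBP precursors are held in the endoplasmic reticulum by SCAP bound to INSIG proteins; when sterols are low, SCAP carries them to the Golgi, where proteases release the active factors. SREBP-1c, from Srebf1, is raised by insulin and by liver X receptors and favours fatty acid synthesis, whereas SREBP-2 favours cholesterol synthesis, and Insig1 is itself a target of SREBPs. Spot 14 (Thrsp) and its relative MIG12 (Mid1ip1) act on lipogenesis, MIG12 by promoting assembly of acetyl-CoA carboxylase.

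Because reads were counted over the whole gene, ChREBP-α and ChREBP-β are not separated here. To show the separate starts of the Mlxipl and Srebf1 isoforms and that of Insig1, the one member past the threshold in F1 exons, the bases before a RefSeq start site are given here in GRCm38.p6, the build named mm10 in the deposited files, 5′ to 3′ on the strand of the gene and without annotated exon bases of GENCODE. Capitals mark an E-box (CACGTG, the same on both strands), the element that carbohydrate response elements are built from, or a sterol response element (TCACNCCAC). The first sequence precedes the start of the Mlxipl gene (chr5:135089640-135089889), where ChREBP-β begins. The second precedes the start 17001 bases downstream, where ChREBP-α begins, and lies in an intron of the longer gene (chr5:135106641-135106890).
Mlxipl upstream start: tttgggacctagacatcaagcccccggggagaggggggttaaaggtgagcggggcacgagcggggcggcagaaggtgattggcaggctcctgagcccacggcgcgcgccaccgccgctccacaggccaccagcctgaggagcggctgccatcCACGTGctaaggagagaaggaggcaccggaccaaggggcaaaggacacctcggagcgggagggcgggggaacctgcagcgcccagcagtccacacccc
Mlxipl downstream start: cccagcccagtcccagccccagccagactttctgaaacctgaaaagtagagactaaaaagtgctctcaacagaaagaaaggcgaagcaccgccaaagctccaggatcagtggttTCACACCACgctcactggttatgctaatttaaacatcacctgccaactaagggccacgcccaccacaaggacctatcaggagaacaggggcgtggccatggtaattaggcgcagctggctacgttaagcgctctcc
Insig1 (chr5:28071162-28071362, plus strand): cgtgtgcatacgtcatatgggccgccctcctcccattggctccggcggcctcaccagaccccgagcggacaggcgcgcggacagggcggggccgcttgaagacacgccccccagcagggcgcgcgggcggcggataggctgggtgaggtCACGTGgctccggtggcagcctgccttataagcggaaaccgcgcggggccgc
Srebf1 downstream start (chr11:60210472-60210721, minus strand): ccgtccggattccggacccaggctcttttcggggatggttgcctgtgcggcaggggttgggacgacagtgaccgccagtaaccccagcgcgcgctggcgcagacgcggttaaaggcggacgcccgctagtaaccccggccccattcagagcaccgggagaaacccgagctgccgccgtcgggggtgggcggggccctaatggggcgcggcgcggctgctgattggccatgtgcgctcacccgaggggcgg
The Srebf1 stretch precedes the start used by SREBP-1c, 12110 bases inside the gene. Both the upstream Mlxipl start and Insig1 have 1 E-box, and the downstream Mlxipl start has 1 match to the sterol response element. In windows from 250 bases before to 50 after a start, CACGTG was present in 5 of 17 windows of the 10 genes, belonging to Mlxipl, Mlx, Insig1 and Scap, and in 7.17% of 32544 distinct mouse windows. The Scap windows overlap and hold the same E-box, so this site is counted more than once. TCACNCCAC was present in 1 of 17 windows and in 1.24% of all windows. A pair of E-boxes separated by 5 bases (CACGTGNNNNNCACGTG) and a direct repeat for liver X receptors (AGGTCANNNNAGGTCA) were in none of the 17, against 0 and 5 of 32544. With no match in any window, the exact pair cannot show whether a member has a carbohydrate response element. For Mlxipl, the paper cites putative elements before and after the first ChREBP-β exon. The upstream stretch printed here does not reach the later one. The exact repeat is so rare that it likewise cannot show whether a member has a liver X receptor element. Elements with E-box-like sequences, which the paper also describes, and variants of the repeat were not searched. CCAAT was found in 8 of the 17 windows and GGGCGG in 10, against 37.4% and 35.9% of all windows. Such matches describe the letters only.

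Exon reads totalled 6351075 to 10044546 per library, and 3 reads corresponded to 0.299 to 0.472 CPM (read counts scaled to library size), a floor for counting error only that every one of the 10 genes exceeded in exon reads. Reads in introns made up 36.0% to 37.9% of the reads on nuclear protein-coding genes in the F1-CD and F0 libraries, and 40.7% to 48.4% in the F1-LPD libraries, highest in F1-LPD mouse 1. All 8 adipocyte markers (such as Adipoq, Plin1 and Fabp4) were present in all 10 libraries, at a summed 11287 to 18772 CPM. Because the tissue was sequenced in bulk, fewer cells of a type and less RNA per cell cannot be told apart.

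Per exon length, on the scale of deposited RPKM, Thrsp was the most abundant of the 10 genes in every group. Its RPKM was 1102 ± 69.0 (SD, n = 3) in F1-CD, 845 ± 301 (SD, n = 3) in F1-LPD, 785 ± 62.9 (SD, n = 2) in F0-CD and 391 ± 162 (SD, n = 2) in F0-LPD. Insig1 (85.7 ± 4.72, SD, n = 3) and Srebf1 (77.1 ± 12.2, SD, n = 3) followed in F1-CD and overlapped each other in all 4 groups. Mid1ip1 (38.0 ± 5.53), Mlxipl (23.6 ± 2.48) and Nr1h3 (14.8 ± 1.29) came next in F1-CD with ranges that did not touch. Mlx (9.66 ± 1.14) and Srebf2 (9.51 ± 0.389) overlapped, and Scap (5.72 ± 0.293) and Insig2 (4.62 ± 0.318) were lowest in F1-CD. In F0-LPD, Mid1ip1 had rank 7 in the order, at an RPKM of 8.96 ± 1.02 (SD, n = 2), below Nr1h3 and with a range that overlapped that of Srebf2. Insig2 was last in all 4 groups, although its range met that of Scap in F0-LPD.

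To ask whether paternal diet affected these regulators in the offspring, exon reads were compared between F1-CD and F1-LPD. Of the 10 genes, only Insig1 was down-regulated past an adjusted p-value of 0.05, and Mlxipl was the one other gene with all 3 pLPD offspring below all 3 F1-CD mice. Among all 14049 genes tested, 1.02% passed the threshold as lower and 10.3% had non-overlapping groups with F1-LPD below. The remaining 8 genes overlapped between the paternal diets. Of the 10 log2 fold changes, 6 were negative and 4 positive, with a median of −0.17, compared with 0.01 over all genes tested.

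**Figure D1:**
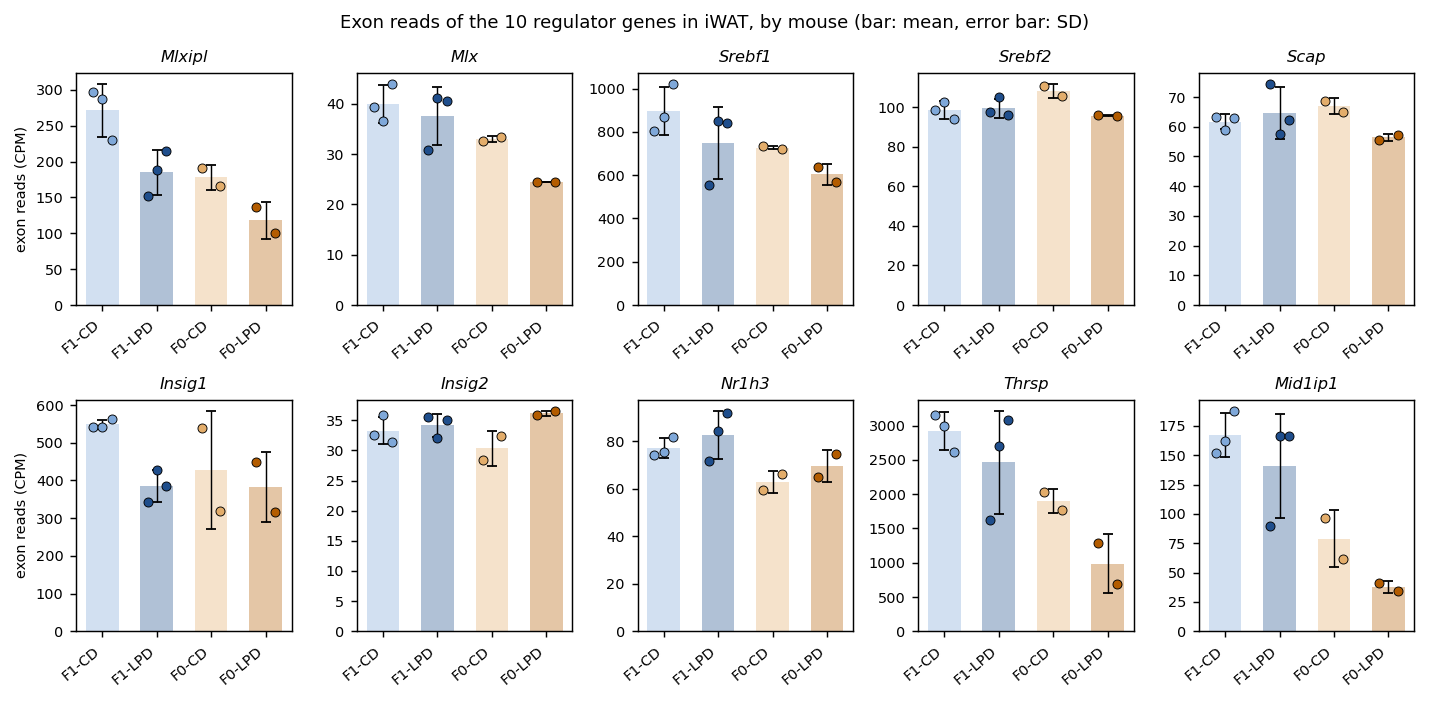
Exon reads of the 10 regulators, in CPM on the y axis, for each mouse (points) with the mean (bar) and SD (error bar) of the 4 groups on the x axis. Insig1 and Mlxipl have no overlap between F1-CD and F1-LPD. F1-LPD mouse 1 is the lowest of its group for these genes and for Mlx, Srebf1, Nr1h3, Thrsp and Mid1ip1.

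Mlxipl, on chromosome 5 from 135089890 to 135138382, had exon reads of 297, 287 and 230 CPM in the F1-CD mice and 152, 189 and 214 CPM in the F1-LPD mice. The groups did not overlap, with a narrow gap between F1-CD mouse 3 and F1-LPD mouse 3. The log2 fold change was −0.55 (SE 0.13), and edgeR's quasi-likelihood test gave an adjusted p = 0.0703, just short of the threshold. DESeq2 gave the same size with an adjusted p = 0.00401. Of the 6 fits that left out 1 mouse, only that without F1-CD mouse 3 passed (−0.66, edgeR's adjusted p = 0.0154). The 6 ranged from −0.68 without F1-LPD mouse 3 (edgeR's adjusted p = 0.0521) to −0.43 without F1-LPD mouse 1 (edgeR's adjusted p = 0.166), and the highest adjusted p was 0.266, without F1-CD mouse 2. With a library's exon share (exon reads out of exon plus intron reads, nuclear protein-coding genes) as covariate, the estimate was −0.18 and edgeR's adjusted p = 0.826. Every F1-LPD library had a lower exon share than every F1-CD library, so this fit cannot separate the covariate from paternal diet. Mlx, the dimerization partner, was at 39.5, 36.6 and 43.9 CPM in F1-CD and 30.9, 41.2 and 40.6 CPM in F1-LPD. Its groups overlapped (log2 fold change −0.09, SE 0.13; adjusted p = 0.802 in edgeR's quasi-likelihood test).

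Insig1, the ER-resident brake on SREBP processing, lies on chromosome 5 from 28071363 to 28078662. Its exon reads were 543, 542 and 563 CPM in the F1-CD mice and 343, 428 and 385 CPM in the F1-LPD mice. The F1-CD mice lay within a few percent of each other and all F1-LPD mice were below them. The mean was 549 ± 12.0 (SD, n = 3) against 385 ± 42.2 (SD, n = 3), and Insig1 fell by 29.8% (log2 fold change −0.51, SE 0.10; adjusted p = 0.0385 in edgeR's quasi-likelihood test). DESeq2 gave the same log2 fold change of −0.51 with an adjusted p = 4.5e-05. The call was sensitive to single mice. It was kept without F1-CD mouse 3 (adjusted p = 0.0287 in edgeR), and edgeR's adjusted p was 0.147 without F1-CD mouse 1, 0.161 without F1-CD mouse 2, 0.0863 without F1-LPD mouse 1, 0.0755 without F1-LPD mouse 2 and 0.0636 without F1-LPD mouse 3, with log2 fold changes between −0.59 and −0.43. With the exon share as a covariate it was −0.32 (edgeR's adjusted p = 0.565), in a fit that cannot separate this share from paternal diet.

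Srebf1, which encodes SREBP-1a and SREBP-1c, was at 803, 871 and 1021 CPM in the F1-CD mice and 555, 851 and 840 CPM in the F1-LPD mice. Only F1-LPD mouse 1 stood clearly below the F1-CD mice, and the log2 fold change of −0.26 (SE 0.16; adjusted p = 0.468 in edgeR's quasi-likelihood test) was −0.09 without that mouse. Srebf1 overlaps 109 bases of Rai1 on the opposite strand, and whether the authors counted by strand is not given in the sources used here. Srebf2, encoding SREBP-2, was at 98.6, 103 and 93.9 CPM in F1-CD and 97.5, 105 and 95.9 CPM in F1-LPD (log2 fold change 0.01, SE 0.08; edgeR's adjusted p = 0.956). Scap, the escort of SREBPs, ranged from 58.8 to 63.5 CPM in F1-CD and from 57.5 to 74.3 CPM in F1-LPD (0.07, SE 0.11; edgeR's adjusted p = 0.829). Insig2, the second INSIG gene, ranged from 31.4 to 35.8 CPM and from 32.0 to 35.5 CPM (0.04, SE 0.11; edgeR's adjusted p = 0.915). These 3 genes thus had SEs of 0.08 to 0.11 on the log2 scale around estimates close to 0.

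Nr1h3, a liver X receptor expressed in liver, fat and macrophages, was at 74.1, 75.6 and 81.8 CPM in F1-CD and 71.5, 84.5 and 91.9 CPM in F1-LPD, so that the groups overlapped (log2 fold change 0.10, SE 0.10; adjusted p = 0.700 in edgeR's quasi-likelihood test). Thrsp was at 3157, 2999 and 2618 CPM in F1-CD and 1628, 2697 and 3077 CPM in F1-LPD. Mid1ip1 was at 152, 162 and 188 CPM in F1-CD and 90.0, 166 and 167 CPM in F1-LPD. In both Spot 14 genes, F1-LPD mouse 1 was the lowest and the other F1-LPD mice were within the F1-CD range. The log2 fold change was −0.25 for Thrsp (SE 0.19, edgeR's adjusted p = 0.594) and −0.25 for Mid1ip1 (SE 0.19, edgeR's adjusted p = 0.584), and without that mouse −0.02 and −0.01. Both turned positive, to 0.45 and 0.47, when the exon share was a covariate, which in F1 cannot be separated from paternal diet. Only 48.1% to 57.7% of the exon reads of Mid1ip1 matched that gene alone, so its level is uncertain, and it overlaps the lincRNA Gm10489 on the opposite strand, which had at most 10 reads in any library. Of the exon reads of the other 9 genes, at least 91.0% matched uniquely.

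To compare with mice that ate LPD themselves, exon reads of F0-CD and F0-LPD were compared. Mid1ip1 was down-regulated past the threshold and was the only one of the 10 genes to pass it (1.32% of the 14581 genes tested passed as lower). In 7 genes both F0-LPD mice lay below both F0-CD mice, in Insig2 both lay above, and in Insig1 and Nr1h3 the groups overlapped. Over all genes tested, 23.5% had both F0-LPD mice below and 23% had both above. The median log2 fold change of the 10 genes was −0.26, compared with 0.00 over all genes tested. With 2 mice per diet, these p-values rest on variance information shared across genes.

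Mid1ip1 was at 96.1 and 62.0 CPM in F0-CD and 41.2 and 34.0 CPM in F0-LPD. It fell by 52.2% (log2 fold change −1.07, SE 0.19; adjusted p = 0.0287 in edgeR's quasi-likelihood test), and reads that matched it alone gave −1.07 with an adjusted p = 0.0447 in edgeR. Without F0-LPD mouse 2 its value was −0.94 (edgeR's adjusted p = 0.140). Thrsp was at 2024 and 1774 CPM in F0-CD and 1291 and 685 CPM in F0-LPD. The F0-LPD mice differed from each other more than the F0-CD mice did, and the log2 fold change of −0.94 (SE 0.26; adjusted p = 0.102 in edgeR's quasi-likelihood test) did not pass. Leaving out 1 mouse moved it from −1.47 (edgeR's adjusted p = 0.00158, without F0-LPD mouse 1) to −0.56 (edgeR's adjusted p = 0.0916, without F0-LPD mouse 2), and the first of these was the only 1 of 4 such fits to pass. Nr1h3 was at 59.4 and 66.2 CPM in F0-CD and 64.8 and 74.4 CPM in F0-LPD (0.15, SE 0.10; edgeR's adjusted p = 0.564).

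Mlxipl was at 190 and 166 CPM in F0-CD and 137 and 100.3 CPM in F0-LPD. All 4 F0 mice were below every F1-CD mouse, but CPM of F0 and F1 were scaled in separate fits and generation coincides with age. Its log2 fold change was −0.59 (SE 0.14; adjusted p = 0.0756 in edgeR's quasi-likelihood test), and 1 of the 4 fits without 1 mouse passed. These ran from −0.83 (edgeR's adjusted p = 0.0147) without F0-LPD mouse 1 to −0.39 (edgeR's adjusted p = 0.271) without F0-LPD mouse 2. Mlx was at 32.6 and 33.5 CPM in F0-CD and 24.5 and 24.5 CPM in F0-LPD (−0.43, SE 0.10; edgeR's adjusted p = 0.0729). Both partners of the ChREBP dimer therefore lay lower in both F0-LPD mice, with neither past the threshold in these edgeR fits. DESeq2 gave −0.59 for Mlxipl (adjusted p = 0.0226) and −0.43 for Mlx (adjusted p = 0.624). Of 10 other settings with all mice, DESeq2 among them, 4 passed for Mlxipl and 3 for Mlx.

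In the SREBP arm, Srebf1 was at 733 and 722 CPM in F0-CD and 638 and 570 CPM in F0-LPD (log2 fold change −0.27, SE 0.11; adjusted p = 0.303 in edgeR's quasi-likelihood test). Insig1 was at 539 and 318 CPM in F0-CD and 449 and 316 CPM in F0-LPD, so that the F0-CD mice differed from each other more than the diets did. Its log2 fold change of −0.16 (SE 0.24; edgeR's adjusted p = 0.814) turned to 0.27 without F0-CD mouse 1 and to 0.06 without F0-LPD mouse 2. Srebf2 was at 111 and 106 CPM against 96.0 and 95.4 CPM (−0.18, SE 0.08; edgeR's adjusted p = 0.358). Scap was at 68.8 and 65.0 CPM against 55.6 and 57.3 CPM (−0.25, SE 0.09; edgeR's adjusted p = 0.197). Insig2 was at 28.3 and 32.4 CPM against 35.8 and 36.5 CPM, the one gene higher in both F0-LPD mice (0.25, SE 0.11; edgeR's adjusted p = 0.307).

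Whether a diet effect differed between the generations was tested as an interaction over all 10 libraries. None of the 10 genes passed (0 of 10, against 1.25% of 15111 genes tested), and at an unadjusted p-value under 0.05 Mid1ip1 was the only one, against 12.5% of all genes. Its effect was higher in F1 than in F0 by 0.81 on the log2 scale (SE 0.34; adjusted p = 0.323 in edgeR's quasi-likelihood test), and DESeq2 gave 0.82 with an adjusted p = 0.601. Of the 10 fits without 1 mouse, only that without F1-LPD mouse 1 passed (1.05, edgeR's adjusted p = 0.0482), and without F0-CD mouse 1 the interaction was 0.48 (edgeR's adjusted p = 0.708). For Thrsp it was 0.69 (SE 0.37, edgeR's adjusted p = 0.472), for Insig1 −0.36 (SE 0.27, edgeR's adjusted p = 0.645) and for Mlxipl 0.02 (SE 0.23, edgeR's adjusted p = 0.983). In DESeq2 also, no gene of the 10 passed.

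Intron reads, which come largely from unspliced RNA, were counted beside the exon reads. In F1, no gene of the 10 passed in introns (0 of 10, against 0.424% of 13456 genes tested by edgeR), and at an unadjusted p-value under 0.05 only Srebf2 did, against 13.8% of all genes. DESeq2 called none of the 10. Srebf2 had intron reads of 112, 113 and 117 CPM of all intron reads in F1-CD and 123, 137 and 139 CPM in F1-LPD, without overlap, as in 8.98% of all genes in this direction (log2 fold change 0.22, SE 0.08; adjusted p = 0.259 in edgeR's quasi-likelihood test). Introns made up 44.2% ± 1.66 (SD, n = 3) of its exon and intron reads in F1-CD and 49.4% ± 0.728 (SD, n = 3) in F1-LPD. An exact two-sided permutation test of this share gave p = 0.1, the smallest p that 3 against 3 mice allow. In the other 9 genes the intron share overlapped between the paternal diets, with exact permutation p between 0.2 and 0.9. This share moves with the library-wide intron share given above, and the part of the latter in it was not tested.

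**Figure D2:**
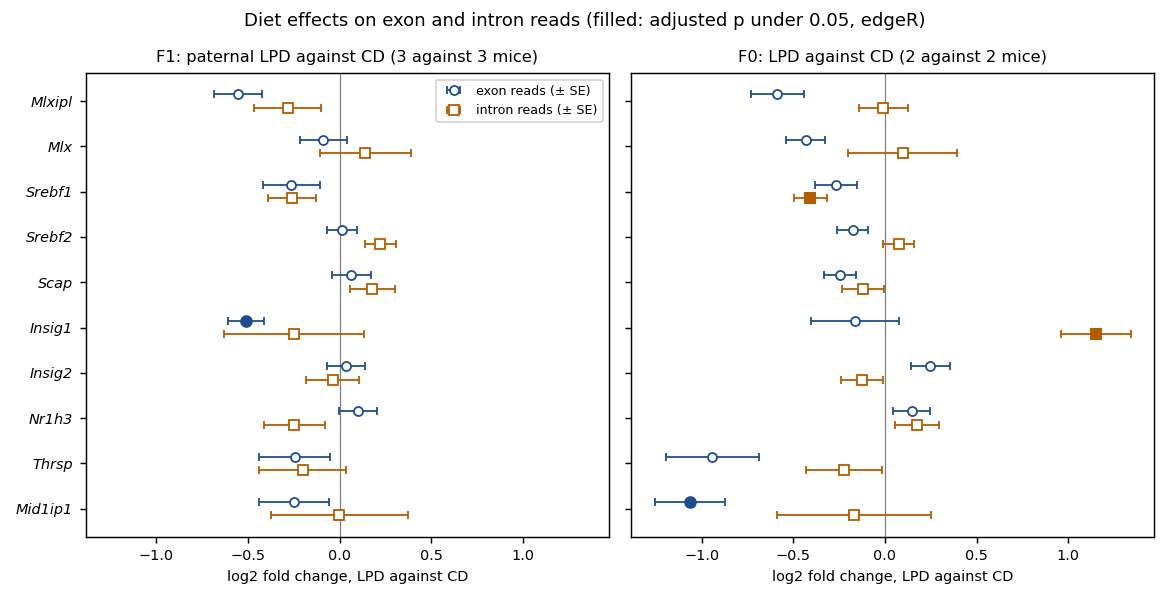
Log2 fold change (x axis) of exon reads (circles) and intron reads (squares) with SE for the 10 genes (y axis), in F1 (left, 3 against 3 mice) and F0 (right, 2 against 2 mice). Filled symbols passed an adjusted p of 0.05 in edgeR, namely Insig1 exons in F1, Mid1ip1 exons in F0, and Insig1 and Srebf1 introns in F0.

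In F0, 2 of the 10 genes passed in introns, against 3.48% of the 14334 genes tested. Insig1 had 95 and 139 intron reads in the F0-CD mice and 301 and 190 in the F0-LPD mice, corresponding to 17.4 and 23.8 CPM against 52.9 and 38.7 CPM of intron reads. It rose by 1.15 on the log2 scale (SE 0.19; adjusted p = 0.0114 in edgeR's quasi-likelihood test), and the call held in each fit that left out 1 mouse, with estimates from 0.91 to 1.40. The same measure varied as widely within 1 diet in F1, where F1-CD mouse 3 had 436 intron reads (85.3 CPM) and the other F1-CD mice had 148 and 154 (29.0 and 26.1 CPM). Srebf1 had intron reads of 112 and 122 CPM in F0-CD and 85.8 and 91.5 CPM in F0-LPD, without overlap. It fell by 24.6% (log2 fold change −0.41, SE 0.09, adjusted p = 0.0439 in edgeR's quasi-likelihood test). In F0 introns, 3 of the 10 genes had both F0-LPD mice below both F0-CD mice and 2 had both above. The share of all genes that did so is given here for F0 exons only (23.5% below and 23% above). DESeq2 gave −0.40 for Srebf1 with an adjusted p = 0.210, and edgeR's adjusted p was 0.132 without F0-CD mouse 2, 0.246 without F0-LPD mouse 1 and 0.123 without F0-LPD mouse 2.

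Exon and intron reads of a gene were then set against each other within each mouse, in a test chosen after the data had been seen. In F0, the diet effect on introns exceeded that on exons in Insig1, Mlxipl and Thrsp, whereas 1.47% of the 12694 genes tested passed in that direction. The difference was 1.27 on the log2 scale for Insig1 (SE 0.18; adjusted p = 9.0e-07), 0.57 for Mlxipl (SE 0.11; adjusted p = 0.000551) and 0.77 for Thrsp (SE 0.16; adjusted p = 0.00152), all from edgeR's quasi-likelihood test. Mlxipl had intron reads of 73.1 and 70.5 CPM in F0-CD and 81.6 and 60.5 CPM in F0-LPD, overlapping, while its exon reads did not overlap. Introns made up 19.4% ± 0.649 (SD, n = 2) of the reads of Mlxipl in F0-CD and 26.0% ± 0.453 (SD, n = 2) in F0-LPD. Each of the fits without 1 mouse kept Insig1 and Mlxipl past the threshold, and Thrsp lost it without F0-CD mouse 1 (0.33, edgeR's adjusted p = 0.298). The sizes were less stable, since Insig1 was at 0.68 without F0-CD mouse 1 and 1.89 without F0-CD mouse 2, and Thrsp reached 1.26 without F0-CD mouse 2. Thrsp was at 0.52 without F0-LPD mouse 2. In F1, none of the 10 genes passed this test (0 of 10, against 0.125% of the 12035 genes tested in either direction), and none had an unadjusted p-value under 0.05, against 7.31% of all genes. Without F1-CD mouse 3, whose introns were high, Insig1 reached 0.99 (edgeR's adjusted p = 0.00191) and Mlxipl 0.52 (edgeR's adjusted p = 0.0480).

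**Figure D3:**
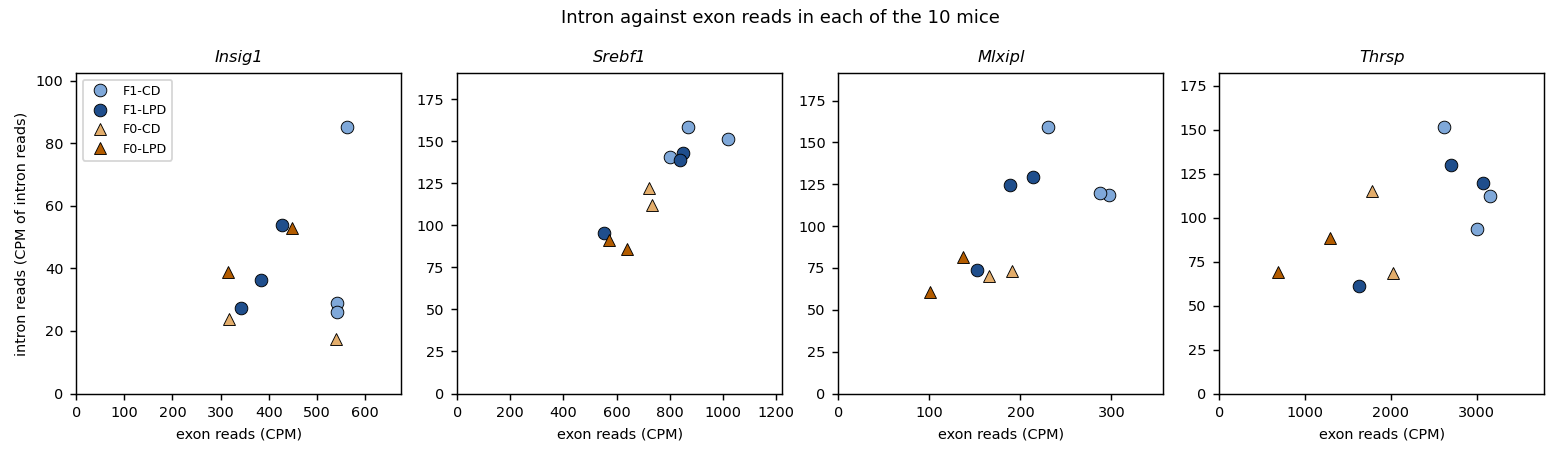
Intron reads (y axis, CPM of all intron reads) against exon reads (x axis, CPM of all exon reads) for Insig1, Srebf1, Mlxipl and Thrsp, 1 symbol per mouse, circles for F1 and triangles for F0. F1-CD mouse 3 is highest in Insig1 introns at 85.3 CPM, and both F0-LPD mice lie above both F0-CD mice in Insig1 introns.

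Genes on which these regulators act, and their partners, were described from lists written by function, with earlier results of these data known. In F1, 12 of 13 fatty acid synthesis enzymes had negative log2 fold changes in exon reads, with a median of −0.65, and 3 were down-regulated past the threshold, against the 1.02% of all genes. These were Elovl6, which elongates palmitate (−1.40, adjusted p = 0.00868), Acacb, an acetyl-CoA carboxylase (−0.68, adjusted p = 0.0216), and Elovl5, which elongates polyunsaturated fatty acids (−0.59, adjusted p = 0.00735), all in edgeR's quasi-likelihood test. All 18 tested SREBP-2 sterol targets were negative, with a median of −0.37, and 3 enzymes of cholesterol synthesis passed. They were Mvd (27.7 ± 5.19 against 13.8 ± 3.22 CPM, SD, n = 3 each; adjusted p = 0.0371), Sqle (−0.80, adjusted p = 0.0490) and Fdps (−0.76, adjusted p = 0.0412), in edgeR's quasi-likelihood test. In introns the sterol targets were 9 negative and 9 positive (median 0.0054) and the fatty acid synthesis enzymes 9 negative and 4 positive (median −0.19), with no call in either list. The falls in exons accompanied levels of Srebf2 and Scap exon reads whose groups overlapped.

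The other target lists moved less in F1. Of 8 LXR targets, Pltp, a phospholipid transfer protein, was down-regulated (−0.76, edgeR's adjusted p = 0.0114), with a list median of −0.09. None of 6 tested ChREBP and MondoA targets passed in exon reads (median −0.02). Among them, Txnip, a glucose-responsive inhibitor of glucose uptake, had exon reads of 697 ± 28.5 CPM (SD, n = 3) in F1-CD and 902 ± 110 CPM (SD, n = 3) in F1-LPD (0.37, edgeR's adjusted p = 0.124). Its exon groups did not overlap, with F1-LPD above F1-CD, and the share of all genes that did so in this direction is not given here. The list was split, with 3 genes positive and 3 negative. Of the negative genes, 2 lay lower without overlap, as did 10.3% of all genes tested. They were the glycerol-3-phosphate dehydrogenase Gpd1 (−0.40, edgeR's adjusted p = 0.126) and the arrestin-domain gene Arrdc4 (−0.27, edgeR's adjusted p = 0.267). These 2 were named after their values were seen. The introns of Txnip rose by 1.27 on the log2 scale, from 37.3 ± 7.27 to 90.0 ± 25.7 CPM (SD, n = 3 each; edgeR's adjusted p = 0.0231). Genes of SREBP and INSIG turnover (0 of 6 past the threshold, median 0.07) and the partners and paralogs Mlxip, Nr1h2, Rxra, Rxrb, Mbtps1 and Mbtps2 (0 of 6, median −0.01) gave no call. The partner with the largest estimate was Mbtps2, a protease that releases SREBPs, at −0.27 (edgeR's adjusted p = 0.432).

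In F0, the lists split in direction. Of the 13 fatty acid synthesis enzymes 9 were negative (median −0.24), and the desaturase Fads1 was down-regulated (−0.68, edgeR's adjusted p = 0.0191). Of the SREBP-2 sterol targets 14 of 18 were negative (median −0.26), but Hmgcs1, the synthase at the entry of the mevalonate pathway, rose by 1.52 in exons (edgeR's adjusted p = 0.0241) and by 1.77 in introns (edgeR's adjusted p = 0.000369). Introns of these lists leaned the other way, with 9 of 13 enzymes positive (median 0.20) and 10 of 18 sterol targets positive (median 0.13). Of the 8 LXR targets 7 were positive, with a median of 0.35, and 4 were up-regulated, against 1.18% of all genes in this direction. These were the sterol exporter Abcg1 (1.05, adjusted p = 0.00783), Pltp (0.86, adjusted p = 0.0241), Apoc1 (0.80, adjusted p = 0.00995) and Smpdl3a (0.51, adjusted p = 0.0437), in edgeR's quasi-likelihood test, while Nr1h3 itself had overlapping groups. The introns of Acacb fell by 1.27 (edgeR's adjusted p = 7.6e-05) and those of Pltp rose by 0.83 (edgeR's adjusted p = 0.0259). No ChREBP and MondoA target (0 of 6, median −0.16), turnover gene (0 of 6, median 0.04) or partner (0 of 6, median −0.02) passed in exons. Among the partners Rxra had the largest estimate, −0.26 (edgeR's adjusted p = 0.250). The interaction with generation was past the threshold for Elovl5, Pltp, Apoc1 and Abcg1, with each diet effect lower in F1 than in F0.

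**Figure D4:**
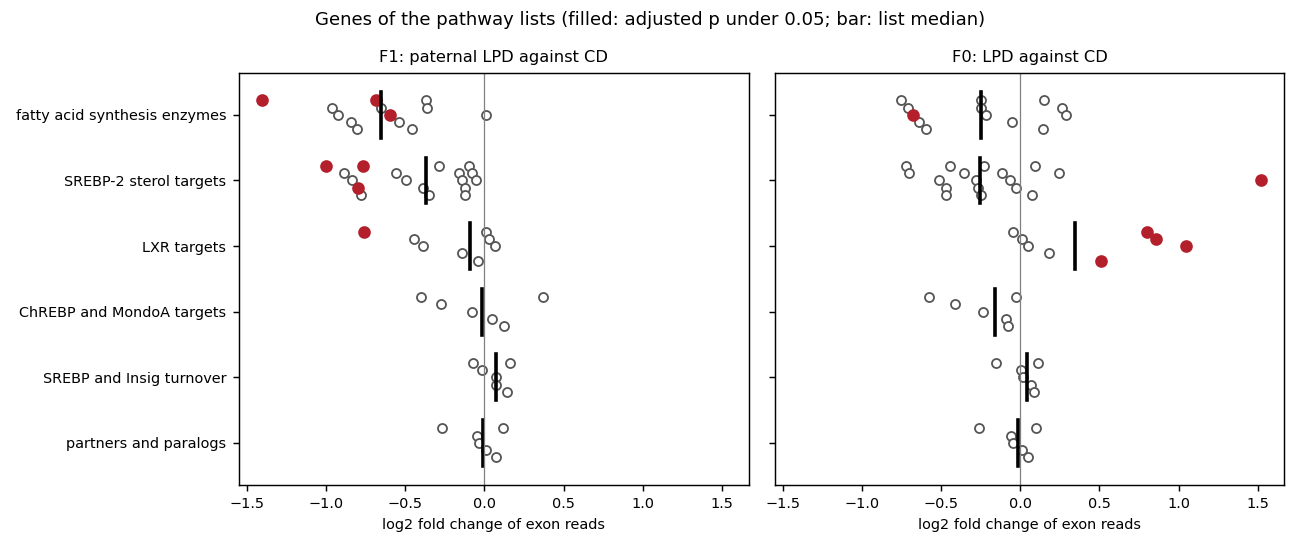
Log2 fold change of exon reads (x axis) of every tested gene in 6 pathway lists (y axis), in F1 (left) and F0 (right), with filled points past an adjusted p of 0.05 in edgeR and black bars at the list medians. Fatty acid synthesis enzymes and sterol targets lie mostly below 0 in F1, and LXR targets lie mostly above 0 in F0.

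For Mlxipl, Srebf1, Insig1 and Thrsp, the genes whose exon reads varied most alike over the 10 libraries were looked up. They were sought among 9929 genes whose mean level was 10 CPM or more. The measure was the root mean square distance of log2 CPM centred on each generation. The closest to Mlxipl were Sbk1 (0.09), Dhrs7 (0.10) and Parm1 (0.10), where Mlxipl itself varied by 0.34. Closest to Srebf1, which varied by 0.23, were Mxra8 (0.08), Csf1 (0.09) and Polr1c (0.09). Insig1, with a variation of 0.30, had Kit (0.11), Cpxm1 (0.15) and Gpd1 (0.15) as nearest. Thrsp, with 0.46, had Fasn, the fatty acid synthase (0.18), the mitochondrial dicarboxylate carrier Slc25a10 (0.18) and Unc5a (0.19). These distances describe 10 libraries that share depth and composition, with no test.

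Markers of other cells in the pad moved with diet beside the genes above. In F1, 4 of 6 tested macrophage markers were down-regulated, with a summed level of 951 to 1166 CPM in F1-CD and 673 to 755 CPM in F1-LPD. Epithelial markers were 2 of 4 lower, at 10.9 to 14.1 against 1.69 to 4.96 CPM, both to be read against the 1.02% of all genes that passed as lower. Of 6 brown and beige markers 5 were negative (median −0.32), and the one positive gene, Ppargc1a, passed as higher, against 0.142% of all genes (1174 to 1740 against 753 to 2261 CPM for the sum). No marker passed among 8 adipocyte (11287 to 12458 against 11404 to 13645 CPM), 8 lymphocyte (702 to 789 against 711 to 1007 CPM), 7 skeletal muscle (87.6 to 174 against 41.3 to 161 CPM), 5 endothelial (494 to 677 against 431 to 544 CPM) and 5 progenitor genes (612 to 739 against 426 to 611 CPM).

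In F0, 3 of 7 skeletal muscle markers were lower, at 1376 to 2070 CPM in F0-CD and 727 to 998 CPM in F0-LPD, and 5 of 6 brown and beige markers were higher, at 143 to 267 against 637 to 753 CPM. The adipocyte gene Retn and the macrophage gene Cd163 were lower and the lymphocyte gene Ms4a1 was higher. Among all genes tested in F0, 1.32% passed as lower and 1.18% as higher. The sums were 14466 to 15291 against 14659 to 18772 CPM for adipocyte, 948 to 993 against 871 to 946 CPM for macrophage and 636 to 712 against 781 to 873 CPM for lymphocyte markers. No endothelial (433 to 480 against 442 to 479 CPM) or progenitor (672 to 728 against 583 to 601 CPM) marker passed, nor did Cdh1, the only 1 of 6 epithelial markers high enough to be tested (3.79 to 5.59 against 3.96 to 4.10 CPM for the sum). No marker of these lists was at 0 in all mice of a group. The part of these cell types in the values of Insig1, Mlxipl, Mid1ip1 and the target lists was not tested.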

How the data were processed

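Total RNA of iWAT was depleted of rRNA and sequenced from directional libraries. Mapping to mm10 was done by the authors with CLC Genomics Workbench, and they deposited, per gene and library, raw read counts on exons, introns and junctions, and RPKM values, which they scaled by exon length and library reads. Whether reads were counted by strand is not given in the sources used here. Exon and intron counts were analysed in R 4.3.3 with edgeR 4.0.16 (filterByExpr, TMM, two-sided quasi-likelihood F test), with Benjamini-Hochberg adjustment over all genes tested and a threshold of 0.05. F1 and F0 were fitted apart, and their interaction in 1 fit of all 10 libraries. The SE of a log2 fold change follows from it and F. CPM are per TMM-normalized library, separately for exon and intron reads. In the test of intron against exon effects each mouse was its own block. DESeq2 1.42.0 and limma 3.58.1 served as alternatives, together with other filters, read classes, a replicate block, the exon share as a covariate, and each mouse left out. Intron shares were compared by an exact permutation test over all splits of the mice. Promoter sequences are from RefSeq (GRCm38.p6), and all 10 genes matched by symbol. Scripts were tested on simulated data. The values named are those of all members, the partners, Txnip, every list gene past the threshold, and the 3 genes nearest in pattern to Mlxipl, Srebf1, Insig1 and Thrsp. The members and lists were chosen with earlier results of these data known.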

Additional observations from a re-analysis of the deposited data

How the results depend on the processing

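With 3 or 2 mice per group, counts of calls moved with most settings, and the cause was not tested unless said. In F1 exons, edgeR called 20 genes higher and 144 lower with 1 of the 10 regulators. DESeq2 called 74 and 269 with 2 regulators, no filter 234 and 564 with 2, unique reads 42 higher with 2 regulators, all 4 groups in 1 fit 62 and 277 with 0, exon plus intron reads 0 regulators, limma on log2 RPKM 2 higher with 0, and the exon share as covariate 1 and 10 with 0. In F0 exons, 172 genes were higher and 192 lower with 1 regulator. DESeq2 called 2 regulators, no filter 633 and 710 genes with 4, all groups in 1 fit 110 and 65 with 0, exon plus intron reads 0, limma on log2 RPKM 30 and 52 with 0, and the exon share 473 and 572 with 4. For the interaction, DESeq2 called 106 and 235 genes, and no filter 314 and 576 with 2 regulators, Mid1ip1 and Thrsp. In F1 introns, DESeq2 called 67 and 111 genes and exon-based scaling 34 higher; in F0 introns DESeq2 called 1 of the 10. Whether equal numbers pair the mice is not given in the labels. Deviations of same-numbered mice correlated by 0.0010 to 0.072 in the 3 pairs of F1 and by 0.060 in F0. Differently numbered mice were not compared, so these values cannot decide whether the mice are paired. A replicate block gave 48 genes higher in F1 exons, 656 higher and 735 lower with 4 regulators in F0 exons, 83 higher for the interaction, 68 lower in F1 introns and 356 higher in F0 introns. With the block, Insig1 in F1 was at −0.52 (edgeR's adjusted p = 0.0309).

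The exon share as covariate turned 5 estimates in F1 exons, to 0.22 for Mlx, 0.24 for Srebf1, −0.22 for Scap, 0.45 for Thrsp and 0.47 for Mid1ip1, none past the threshold. In F1 this share cannot be separated from paternal diet, so these fits do not tell the part of either. Log2 RPKM turned Srebf2 to −0.15, Scap to −0.10, Insig2 to −0.12 and Nr1h3 to −0.070 in F1. The interaction of Srebf1 was 0.0045 in DESeq2, 0.0047 with its size factors and 0.011 with at least 10 reads in every library. In F1 introns, exon-based scaling turned Insig2 to 0.056 and Mid1ip1 to 0.10, and DESeq2 gave 0.0029 for Mid1ip1.

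With 1 mouse left out, where a group of 1 is assumed to vary like the rest, the numbers higher and lower ranged from 1 to 140 and from 17 to 370 in F1 exons (0 to 2 regulators), from 68 to 281 and from 37 to 223 in F0 exons (0 to 3), from 5 to 132 and from 14 to 263 for the interaction (0 to 1), from 3 to 54 and from 2 to 136 in F1 introns, and from 104 to 414 and from 185 to 550 in F0 introns (1 to 3). For introns against exons in F1 they ranged from 7 to 60 and from 0 to 35 (0 to 2). Log2 estimates that changed sign ranged as follows. In F1 exons Insig2 ranged from −0.0040 to 0.091, Mlx from −0.16 to 0.035, Scap from −0.046 to 0.14 and Srebf2 from −0.025 to 0.046. In F0 exons Insig1 ranged from −0.50 to 0.27. In F1 introns Insig1 ranged from −0.55 to 0.51, Insig2 from −0.14 to 0.049, Mid1ip1 from −0.27 to 0.17 and Thrsp from −0.40 to 0.082. In F0 introns Mid1ip1 ranged from −0.57 to 0.12, Mlx from −0.14 to 0.40, Mlxipl from −0.24 to 0.19 and Thrsp from −0.54 to 0.20. The interaction ranged from −0.18 to 0.26 for Mlxipl, from −0.16 to 0.050 for Nr1h3 and from −0.10 to 0.17 for Srebf1. Introns against exons ranged from −0.069 to 0.13 for Nr1h3 in F0, and in F1 from −0.16 to 0.055 for Insig2, from −0.087 to 0.063 for Srebf1 and from −0.13 to 0.32 for Thrsp. The intron share difference in F1 ranged from −1.23 to 2.43 percentage points for Insig2 and from −0.15 to 0.72 for Thrsp. Of the 739 member estimates under an alternative, 54 changed sign, 22 gained and 18 lost the threshold. Depth limits the introns of Mid1ip1, with 9 to 25 reads per mouse, and those of Mlx, with 25 to 39.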
